A study of Mus musculus with 31 samples.

Results

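# MHC class I presentation genes in parental and glucocorticoid receptor knockout mouse melanoma with and without clobetasol

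The 10 genes described here encode the machinery that shows peptides on major histocompatibility complex (MHC) class I molecules. They were chosen by symbol: every entry of the deposited count table named H2-K1, H2-D1, B2m, Tap1, Tap2, Tapbp, Psmb8, Psmb9, Psmb10 or Nlrc5, in all 8 groups of samples. The table holds 39179 genes, and all 10 were found in it. A class I molecule pairs a heavy chain, such as those of H2-K1 and H2-D1, with the light chain from B2m, and the peptide it holds is cut by proteasomes, carried into the endoplasmic reticulum by the TAP transporter and loaded with the help of tapasin. Psmb8, Psmb9 and Psmb10 encode the inducible catalytic subunits that replace the constitutive ones in the immunoproteasome, and Nlrc5 encodes a transcriptional activator of most genes of the pathway. Cytotoxic T cells read the peptides, and tumors that lose parts of this machinery can escape them.

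The libraries come from a mouse melanoma line, as parental cells and as GR KO cells edited by Cas9 ribonucleoprotein with 1 guide against Nr3c1, the glucocorticoid receptor gene. The line was derived from a C57BL/6 melanoma model with the alleles Nras +LSL-G12D and Tyr::CreERT2 +/o, and tumors grew in the skin of wild type C57BL/6 mice. Tumors were treated through the skin with the glucocorticoid (GC) clobetasol propionate as a 0.05% ointment 3 times weekly, and cultures were held for 48 hours with clobetasol or its solvent DMSO. Whole tumors were dissociated, and RNA was made into 3′ end libraries.

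Parental tumors (parental cells, C57BL/6 host) number 5 with control treatment and 5 with GC, and GR KO tumors (edited cells, the same host strain) again 5 and 5. Cultures of parental cells number 3 with DMSO and 2 with GC, and cultures of GR KO cells 3 and 3, all at 48 hours. Neither the age of the mice nor the time of tumor collection is given, and of the control tumors the labels say only that they were control treated, while the methods of the study name cetraben cream as the topical control. The culture dose is 10 µM in the sample descriptions and 1 µM in the library names. The 6 GR KO culture libraries carry the name of 1 clone, so in cultures the knockout and the clone cannot be told apart. The tumor libraries name no clone, and cells of the host keep the receptor in every tumor. Since a tumor holds host cells as well as melanoma cells, fewer cells that express a gene and less RNA in each of them cannot be told apart in these bulk libraries.

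The tumor libraries hold 15528066 to 26386770 counts each (median 19693173), and the culture libraries 14441166 to 22463188 (median 17054739). The GR KO control tumors stand apart from the rest. GR KO control tumors 1, 2, 3 and 5 have TMM factors of 0.765, 0.835, 0.927 and 0.825, and counts in 13442 to 15150 genes. GR KO control tumor 4 has a factor of 1.04 and counts in 16980 genes, and its members hold 2.72% of all counts, the largest share of any library. Each of these 5 correlates with the others of its group at a mean r of only 0.931 to 0.948, against 0.9502 to 0.989 in the other groups. Levels below are CPM on TMM scaled libraries, listed in order of replicate. In tumors a level of 3 counts is 0.108 to 0.216 CPM, and in cultures 0.139 to 0.213 CPM. Every interval and floor of this kind covers counting error only.

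Nr3c1, the edited gene, read 62.8, 57.6, 43.9, 55.9 and 50.5 CPM in parental control tumors and 20.3, 26.7, 31.2, 33.6 and 23.3 CPM in GR KO control tumors. With GC it read 54.2, 23.5, 48.4, 36.4 and 49.6 CPM in parental tumors and 47.3, 21.4, 57.7, 31.7 and 46.9 CPM in GR KO tumors. No GR KO control tumor reached the lowest parental control tumor, while the GC-treated groups overlap almost fully. In cultures Nr3c1 read 33.9, 30.6 and 36.3 CPM in parental cells with DMSO, 40.6 and 34.2 CPM in parental cells with GC, 25.8, 21.6 and 16.6 CPM in GR KO cells with DMSO and 21.4, 22.4 and 12.9 CPM in GR KO cells with GC. Every GR KO culture lies below every parental one. Nr3c1 fell in GR KO against parental control tumors (log2 fold change -1.02, SE 0.24, adjusted p = 0.0313 by the quasi-likelihood test of edgeR with Benjamini-Hochberg adjustment, called edgeR adjusted p below). The edgeR adjusted p without parental control tumor 1, 2, 3, 4 or 5 is 0.0662, 0.0673, 0.0609, 0.0712 and 0.0524, and without GR KO control tumor 1, 2 or 5 it is 0.0860, 0.0771 and 0.0632. In DMSO cultures the change did not pass (log2 fold change -0.67, SE 0.22, edgeR adjusted p = 0.0840). These are counts of 3′ end tags, and where the edit lies relative to the tags was not examined, so these values check nothing about the edit.

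Tsc22d3, a gene that the activated receptor switches on, shows the treatment better. It read 87.6, 42.5, 70.8, 87.6 and 66.4 CPM in parental control tumors and 461, 174, 374, 338 and 458 CPM in parental tumors with GC. In GR KO tumors it read 59.9, 44.3, 70.9, 94.1 and 61.8 CPM with control treatment and 247, 244, 205, 166 and 237 CPM with GC. In both genotypes every GC-treated tumor lies above every control tumor. In parental cultures Tsc22d3 read 14.8, 10.8 and 15.7 CPM with DMSO and 119.6 and 116 CPM with GC, and in GR KO cultures 16.6, 18.7 and 19.8 CPM with DMSO and 21.1, 14.4 and 16.8 CPM with GC. Here the treated parental cultures stand far above the rest, and the GR KO groups overlap. Tsc22d3 rose with GC in parental tumors (log2 fold change 2.34, SE 0.25, edgeR adjusted p = 1.61e-05). The rise in GR KO tumors also passed (log2 fold change 1.77, SE 0.25, edgeR adjusted p = 4.03e-04), and the difference between the genotypes did not (log2 difference 0.57, SE 0.34, edgeR adjusted p = 0.347). In cultures Tsc22d3 rose in parental cells (log2 fold change 3.09, SE 0.20, edgeR adjusted p = 2.28e-05) and not in GR KO cells (log2 fold change -0.05, SE 0.18, edgeR adjusted p = 0.984). That difference passed (log2 difference 3.14, SE 0.27, edgeR adjusted p = 3.32e-04), so the cultures match their labels of genotype and treatment, while Tsc22d3 does not tell the tumors of the 2 genotypes apart.

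## Members that passed in each comparison

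A member is counted as changed when its edgeR adjusted p is under 0.05 and its fold at least 1.5. GC changed 0 of 10 members in parental tumors by edgeR, where 0.779% of the 15919 genes tested passed. The unadjusted p is under 0.05 for 6 of the 10, DESeq2 finds 2 (H2-K1 and Psmb9), and edgeR finds the same 2 without GC-treated parental tumor 1. In GR KO tumors GC changed 2 of 10, Tapbp and Psmb10, both downward, where 6.42% of all genes passed. That count is 0 without GR KO control tumor 1, 2 or 3 or GC-treated GR KO tumor 1, 3 or 5, it is 1 without GC-treated GR KO tumor 4, 3 without GC-treated GR KO tumor 2, and still 2 without GR KO control tumor 4, which stands apart. Whether GC acts differently in the 2 genotypes was tested too, and that test passed for 0 of 10 by edgeR (1 at unadjusted p under 0.05, 0 by DESeq2), where 0.195% of all genes passed. GC thus has no effect on a member in tumors that is shown to depend on the genotype of the melanoma cells.

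Between the genotypes, GR KO control tumors differ from parental control tumors in 1 of 10 members by edgeR, Psmb10, where 2.25% of all genes passed. By DESeq2 they differ in 3, with Tap2 and Tapbp as well. The edgeR count is 0 without parental control tumor 2, 3 or 4 or GR KO control tumor 1 or 2, and 2 without GR KO control tumor 4. GC-treated GR KO tumors differ from GC-treated parental tumors in 0 of 10 by edgeR (3 at unadjusted p under 0.05, 1 by DESeq2), where 0.634% of all genes passed. Without GC-treated parental tumor 1 the count is 1, Psmb9. These 4 tumor comparisons share their groups in pairs, so their values are not independent of each other. All 10 log2 fold changes of the last comparison lie above 0, with a median of 0.48 against 0.01 over all genes, and yet none passed. The medians of the members for GC are -0.80 in parental tumors (0.00 over all genes) and -0.48 in GR KO tumors (0.05 over all genes). For the difference of the GC effects the median is -0.47 (-0.04 over all genes), and for the genotypes under control treatment it is 0.12 (-0.04 over all genes).

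In cultures 8 members had enough counts to be tested, all but Tap2 and Psmb9. GC changed 0 of 8 in parental cultures by edgeR (2 at unadjusted p under 0.05, 0 by DESeq2), where 0.878% of the 12525 genes tested passed. In GR KO cultures GC also changed 0 of 8 by edgeR (2 at unadjusted p under 0.05, 0 by DESeq2), as it changed 0% of all genes. The difference of those effects passed for 0 of 8 by edgeR (4 at unadjusted p under 0.05, 1 by DESeq2), where 0.295% of all genes passed. Against parental DMSO cultures, GR KO DMSO cultures are lower in 6 of 8 members, where 8.22% of all genes passed. The median of the 8 is -2.16 there, with or without a bound for the 1 member at 0 in all 3 knockout libraries, against 0.01 over all genes. For GC the median is -0.47 in parental cultures (0.00 over all genes) and 0.07 in GR KO cultures (0.02 over all genes).

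Against the cultures, parental control tumors are higher in 9 of 10 members, where 46.7% of the 16273 genes tested passed. GR KO control tumors are higher than their DMSO cultures in all 10, where 54.8% of all genes passed. Tap2 and Psmb9, not tested in cultures alone, entered this fit only through the tumors. That they are higher in tumors thus follows in part from the filter. The genotype effect differs between tumors and cultures for 7 of 10, always upward in tumors, where 5.11% of all genes passed. The member medians are 3.52 in parental samples (0.37 over all genes), 6.08 in GR KO samples (0.33 over all genes) and 2.96 for the difference (0.00 over all genes). For those 7, the genotype effect of the cultures is thus not that of the tumors, which contain host cells as well.

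**Figure D1:**
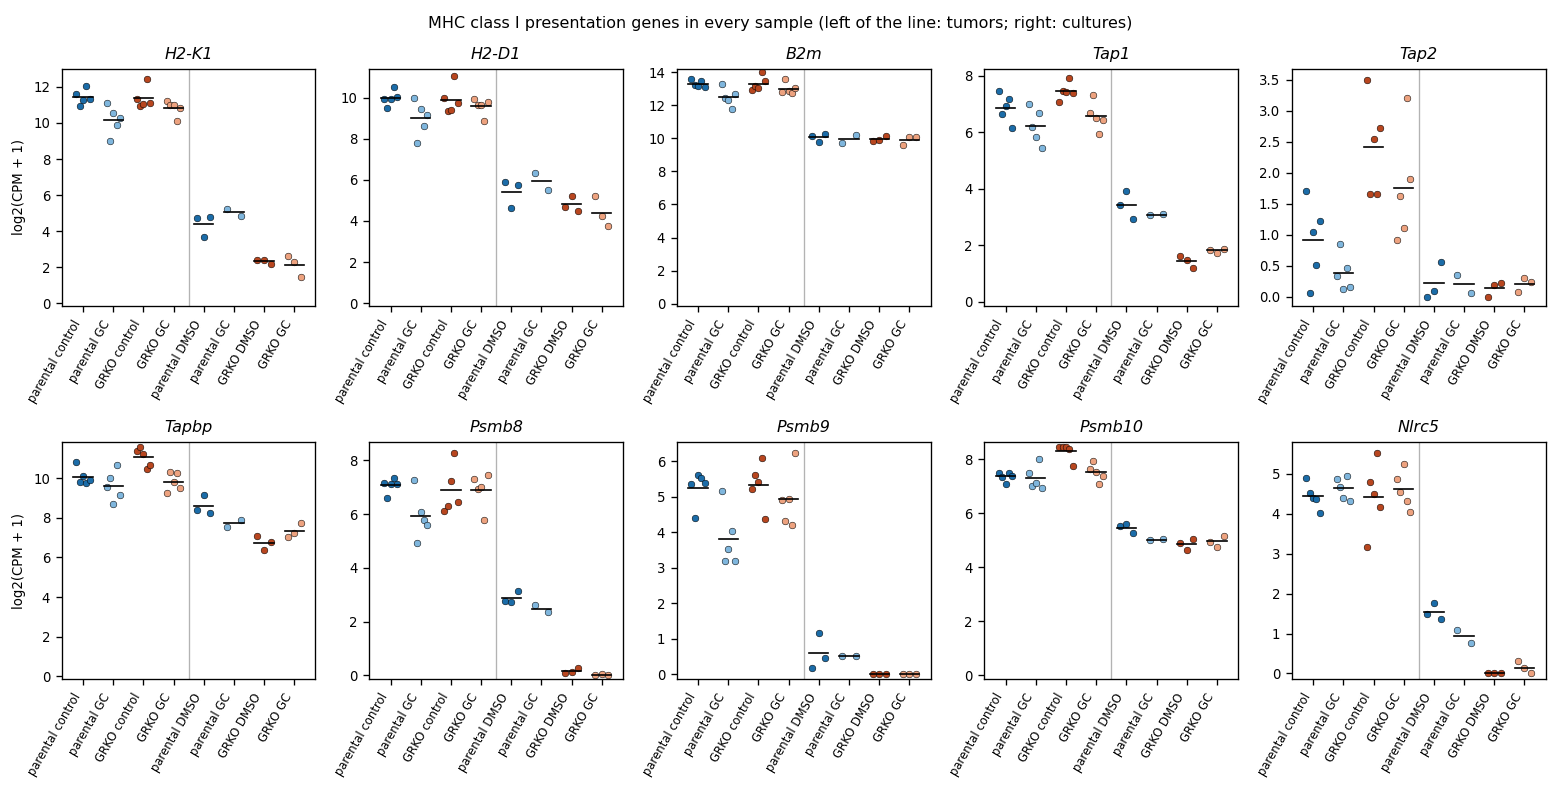
Level of each of the 10 members in each of the 31 samples, as log2 of CPM plus 1. Each dot is 1 tumor or 1 culture (n = 5 tumors in each tumor group; n = 3, 2, 3 and 3 cultures), and the line is the group mean. A dot on the axis is a library without counts.

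## Heavy chains and B2m

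H2-K1, a classical heavy chain, read 3078, 1968, 2490.3, 4277 and 2531 CPM in parental control tumors and 2192, 519, 1481, 950.4 and 1249.5 CPM in parental tumors with GC. GR KO tumors read 2545, 1990.4, 2109.7, 5602 and 2183 CPM with control treatment and 2369, 2034, 2043, 1097 and 1793 CPM with GC. GC-treated parental tumors 2 to 5 lie below every parental control tumor and tumor 1 lies among them, whereas in GR KO tumors only GC-treated tumors 4 and 5 lie below all GR KO controls. The GC effect did not pass in parental tumors (log2 fold change -1.18, SE 0.32, edgeR adjusted p = 0.0929), and the exact permutation test gives p = 0.0159 (two-sided; smallest possible 0.00794 with 5 against 5). Without GC-treated parental tumor 1 it passes (log2 fold change -1.45, edgeR adjusted p = 0.0370), as it does by DESeq2 with all tumors (log2 fold change -1.18, DESeq2 adjusted p = 0.0114). No change passed in GR KO tumors (log2 fold change -0.58, SE 0.32, edgeR adjusted p = 0.270), nor did the difference between the genotypes (log2 difference -0.60, SE 0.45, edgeR adjusted p = 0.469). Control tumors of the 2 genotypes overlap (log2 fold change -0.02, SE 0.32, edgeR adjusted p = 0.978).

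In DMSO cultures H2-K1 read 25.8, 12 and 27.1 CPM in parental cells and 4.31, 4.36 and 3.55 CPM in GR KO cells. With GC it read 36.5 and 27.9 CPM in parental cultures and 5.15, 3.96 and 1.81 CPM in GR KO cultures. Every parental culture lies above every GR KO culture, the 2 parental cultures with GC lie just above the 3 with DMSO, and the GR KO groups overlap. H2-K1 fell in GR KO against parental DMSO cultures (log2 fold change -2.42, SE 0.37, edgeR adjusted p = 0.00197), a call that stands with any 1 library left out. With 3 against 3 the smallest possible exact p is 0.1, and H2-K1 has it. GC did not change it in parental cells (log2 fold change 0.56, SE 0.38, edgeR adjusted p = 0.698).

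H2-D1, the second classical heavy chain, read 982, 719.9, 992, 1461 and 1032 CPM in parental control tumors and 997, 223, 685, 386 and 569.8 CPM in parental tumors with GC. The values in GR KO tumors are 1019, 644, 666, 2104 and 846 CPM with control treatment and 992, 810.1, 789.5, 462 and 884 CPM with GC. GC-treated parental tumors 2 to 5 again lie below all parental controls, GR KO control tumor 4 is again the highest tumor of all, and both pairs of groups overlap. The GC effect did not pass in parental tumors (log2 fold change -0.87, SE 0.33, edgeR adjusted p = 0.229) or GR KO tumors (log2 fold change -0.37, SE 0.33, edgeR adjusted p = 0.513), and in the latter it turns to log2 0.00966 without GR KO control tumor 4. In cultures H2-D1 read 58.7, 23.8 and 53.3 CPM in parental and 25, 36.7 and 21.6 CPM in GR KO cells with DMSO, and with GC 80.4 and 44.3 CPM in parental and 35.6, 17.8 and 12.6 CPM in GR KO cells. Here the genotypes overlap with DMSO, and the effect of the knockout on H2-D1 did not pass (log2 fold change -0.72, SE 0.41, edgeR adjusted p = 0.306).

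The counts of H2-K1 per count of H2-D1 can be compared across samples, and they separate the 2 settings without overlap. The mean is 2.75 (SD 0.286) in parental control tumors, 2.27 (SD 0.125) in parental tumors with GC, 2.80 (SD 0.306) in GR KO control tumors and 2.38 (SD 0.214) in GR KO tumors with GC. In cultures it is 0.485 (SD 0.0385) in parental and 0.152 (SD 0.0290) in GR KO cells with DMSO, and 0.542 (SD 0.125) and 0.170 (SD 0.0451) with GC. The lowest tumor reads 2.03 and the highest culture 0.630, and every GR KO culture lies below every parental one. No test was made of this ratio. In the last 500 bases of the transcript, 2 of 451 stretches of 50 bases in H2-K1 (0.443%) also occur, without a mismatch, in H2-D1. By this count few stretches are shared there, and stretches alike but for mismatches were not counted. How many reads were assigned to the wrong one of the pair was not tested.

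B2m, the light chain shared by all class I molecules, read 12012, 9604, 9333, 11473 and 8592 CPM in parental control tumors and 10115, 5466, 5187, 3560.0 and 6547 CPM in parental tumors with GC. Tumors of GR KO cells read 7591, 9039.8, 8464, 16167 and 11122 CPM with control treatment and 7004, 12183, 7455, 6849 and 8241 CPM with GC. Once more GC-treated parental tumors 2 to 5 lie below all parental controls, and the GR KO groups overlap widely. Neither the GC effect in parental tumors (log2 fold change -0.73, SE 0.26, edgeR adjusted p = 0.195) nor the one in GR KO tumors (log2 fold change -0.29, SE 0.26, edgeR adjusted p = 0.517) passed. In cultures B2m read 1134, 889 and 1215 CPM in parental and 928, 932 and 1103 CPM in GR KO cells with DMSO, and with GC 827 and 1160.0 CPM in parental and 787, 1069 and 1067 CPM in GR KO cells. All 4 culture groups overlap, and no difference between the genotypes passed with DMSO (log2 fold change -0.14, SE 0.19, edgeR adjusted p = 0.671).

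The other class I heavy chains, the nonclassical Q, T and M genes with Mr1 and Cd1d1, were read as a list of 16, of which 15 are in the table (H2-T9 is not). For this and all later lists, a change, rise or fall is one that passed, and the median is that of the log2 fold changes tested. GC gave 0 changes in 12 (median -0.93) in parental tumors and 0 changes in 12 (median -0.31) in GR KO tumors, and the genotypes differ with 0 changes in 12 (median -0.49) in control tumors and 0 changes in 4 (median -0.49) in DMSO cultures. Medians over all genes are 0.00, 0.05, -0.04 and 0.01 in the same order. Of 12 tested, 10 are higher in parental tumors than in parental cultures (46.7% of all genes passed there) and 8 in GR KO tumors than in GR KO cultures (54.8%). Only 4 of the list had enough counts to be tested in cultures alone. The others entered this fit through the tumors, so that they are higher there follows in part from the filter. Of the 10 and 8 calls, 7 and 4 are lost with the replicate block, where the edgeR adjusted p runs up to 0.137 (H2-M2) and 0.274 (Cd1d1). In parental samples Mr1 has an edgeR adjusted p of 0.0682 without parental DMSO culture 2, and Cd1d1 of 0.0717 and 0.0650 without culture 2 or 3; in GR KO samples Cd1d1 has 0.0627 without culture 1. The most abundant in tumors, H2-Q7, read 177, 180.2, 196, 324 and 173 CPM in parental control tumors, 219, 18.6, 92.6, 42.3 and 81.7 CPM in parental tumors with GC, 76, 79.3, 132, 516 and 99.9 CPM in GR KO control tumors and 179, 119, 186, 54.6 and 174 CPM in GR KO tumors with GC. Its GC-treated parental tumors 2 to 5 lie below all parental controls, and in cultures it is at 0 in all libraries but 1, a GR KO culture with GC at 0.0471 CPM. H2-Q1 is at 0 in all tumors, and 6 of the 15 are at 0 in all cultures.

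## Peptide transport and loading

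Tap1, a subunit of the peptide transporter, read 176, 100.5, 120.3, 145 and 70.9 CPM in parental control tumors and 128, 72.6, 55.6, 102 and 43.2 CPM in parental tumors with GC. In GR KO tumors it read 133, 175, 170.4, 241 and 169 CPM with control treatment and 102, 161, 90.7, 60.7 and 86.7 CPM with GC. The parental groups overlap, and in GR KO tumors all GC-treated tumors but tumor 2 lie below every control. The GC effect on Tap1 did not pass in parental tumors (log2 fold change -0.61, SE 0.28, edgeR adjusted p = 0.329) or in GR KO tumors (log2 fold change -0.79, SE 0.28, edgeR adjusted p = 0.0880). The effect in GR KO tumors passes without GC-treated tumor 2 (log2 fold change -1.03, edgeR adjusted p = 0.0347) and by DESeq2 (log2 fold change -0.83, DESeq2 adjusted p = 0.0401). In cultures Tap1 read 9.83, 14.4 and 6.70 CPM in parental and 2.10, 1.81 and 1.31 CPM in GR KO cells with DMSO, and with GC 7.44 and 7.59 CPM in parental and 2.57, 2.36 and 2.69 CPM in GR KO cells. All parental cultures lie above all GR KO cultures. Tap1 fell in GR KO against parental DMSO cultures (log2 fold change -2.57, SE 0.31, edgeR adjusted p = 4.65e-04), with any 1 library left out as well.

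Tap2, the partner of Tap1 in the transporter, has few counts in most libraries. It read 2.27, 0.0484, 1.06, 0.435 and 1.33 CPM in parental control tumors and 0.259, 0.806, 0.0888, 0.385 and 0.114 CPM in parental tumors with GC. GR KO tumors read 10.3, 2.16, 4.81, 2.16 and 5.61 CPM with control treatment and 0.881, 2.08, 1.16, 8.21 and 2.71 CPM with GC. With GC all GR KO tumors lie above all parental tumors, while the other pairs of groups overlap. That difference did not pass by edgeR (log2 fold change 3.17, SE 0.84, edgeR adjusted p = 0.0825), it did by DESeq2 (log2 fold change 3.20, DESeq2 adjusted p = 0.00422), and the exact p is 0.00794, the smallest possible. Between control tumors Tap2 also passed by DESeq2 alone (log2 fold change 2.30, DESeq2 adjusted p = 0.0375; log2 fold change 2.27, SE 0.79, edgeR adjusted p = 0.118). In parental cultures Tap2 has 0, 1 and 8 counts with DMSO and 4 and 1 with GC, and in GR KO cultures 0, 3 and 3 and 1, 5 and 3, too few to rank the groups.

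Tapbp encodes tapasin, which bridges the transporter and the empty class I molecule. It read 1780.1, 884, 1092, 863 and 963 CPM in parental control tumors and 738, 1008, 415, 1634 and 572 CPM in parental tumors with GC. The values in GR KO tumors are 2630.3, 3011, 2358, 1402 and 1605 CPM with control treatment and 612, 1263, 875, 1209 and 733 CPM with GC. Every GC-treated GR KO tumor lies below every GR KO control tumor, and the parental groups overlap. Tapbp fell with GC in GR KO tumors (log2 fold change -1.21, SE 0.33, edgeR adjusted p = 0.0295), with an exact p of 0.00794, the smallest possible. The edgeR adjusted p is 0.0752, 0.0835 and 0.0507 without GR KO control tumor 1, 2 or 3, and 0.0783, 0.0796 and 0.0785 without GC-treated GR KO tumor 1, 3 or 5. No change passed in parental tumors (log2 fold change -0.35, SE 0.32, edgeR adjusted p = 0.670), nor did the difference between the genotypes (log2 difference 0.86, SE 0.46, edgeR adjusted p = 0.290).

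With control treatment all GR KO tumors lie above parental control tumors 2 to 5 in Tapbp, and parental control tumor 1 lies among them (log2 fold change 0.97, SE 0.33, edgeR adjusted p = 0.104). This difference passes by DESeq2 (log2 fold change 1.00, DESeq2 adjusted p = 0.0355) and without GR KO control tumor 4 (log2 fold change 1.11, edgeR adjusted p = 0.0313). In cultures the order of the genotypes is the opposite. Tapbp read 335, 573 and 298 CPM in parental and 133, 81.5 and 110.3 CPM in GR KO cells with DMSO, and with GC 184 and 239 CPM in parental and 127, 147 and 210.0 CPM in GR KO cells. With DMSO the genotypes do not overlap, and both GC-treated parental cultures lie below all 3 parental DMSO cultures. Tapbp fell in GR KO against parental DMSO cultures (log2 fold change -1.90, SE 0.29, edgeR adjusted p = 0.00176), with any 1 library left out as well. GC did not change it in parental cultures by edgeR (log2 fold change -0.94, SE 0.32, edgeR adjusted p = 0.360), and the difference between the genotypes (log2 difference -1.55, SE 0.42, edgeR adjusted p = 0.299) passes only by DESeq2 (log2 difference -1.55, DESeq2 adjusted p = 0.0425).

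The chaperones and peptidases around loading (10 genes) were read as a list, and GC gave 0 changes in 10 (median 0.19) in parental tumors and 1 rise in 10 (Pdia3, 0 to 1 with 1 library left out, median 0.23) in GR KO tumors. For Pdia3 the edgeR adjusted p is 0.0526 with the size factors of DESeq2 and 0.0567 without a filter. With the replicate block it is 0.0661, and with only the 2 groups in the fit 0.0676. The genotypes differ with 0 changes in 10 (median -0.06) in control tumors and 0 changes in 10 (median 0.03) in DMSO cultures. Against cultures, 1 of 10, the trimming peptidase Erap1, is higher in the control tumors of each genotype (log2 2.52 in parental and 2.90 in GR KO samples), and 5 are lower, where 46.7% and 54.8% of all genes passed. The lower ones include the chaperones Calr (-2.29 and -2.06), Canx (-0.97 and -1.07) and Pdia3 (-0.76 and -1.33), of which Pdia3 in parental samples has an edgeR adjusted p of 0.0514 with the replicate block. Tapbpl, a relative of tapasin, passed in neither genotype (log2 fold change 0.24 and 0.76).

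## Immunoproteasome

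Psmb8, the inducible subunit with chymotrypsin-like activity, read 140.2, 95.7, 139.7, 161 and 139 CPM in parental control tumors and 153, 29.2, 67.2, 54.4 and 47.6 CPM in parental tumors with GC. Tumors of GR KO cells read 67.4, 78.6, 151, 307 and 87.3 CPM with control treatment and 159, 122, 128, 54.6 and 173 CPM with GC. GC-treated parental tumors 2 to 5 lie below all parental controls and tumor 1 does not, and the GR KO groups overlap. The GC effect did not pass in parental tumors (log2 fold change -0.96, SE 0.39, edgeR adjusted p = 0.270) or in GR KO tumors (log2 fold change -0.06, SE 0.39, edgeR adjusted p = 0.941). In parental cultures Psmb8 read 5.85, 5.71 and 7.90 CPM with DMSO and 5.10 and 4.08 CPM with GC. In GR KO cultures single libraries hold 1, 2 and 4 counts with DMSO and 0, 1 and 0 with GC, far below every parental culture. Psmb8 fell in GR KO against parental DMSO cultures (log2 fold change -5.65, SE 0.52, edgeR adjusted p = 6.24e-05), with any 1 library left out as well. From the summed counts, 311 against 7, parental cells hold 53.3 times as much (95% interval 25.6 to 134), and 42.1 to 84.7 times with 1 library left out. With GC they hold 243 times as much (43.1 to 9673; 160 against 1), 167 to 277 times with 1 library left out, and without GR KO culture 2, which holds the 1 count, at least 49.4-fold more.

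Psmb9, the inducible subunit that replaces Psmb6, read 40.4, 20.2, 47.9, 45.6 and 40.9 CPM in parental control tumors and 35.2, 8.06, 10.5, 15.3 and 8.06 CPM in parental tumors with GC. In GR KO tumors it read 36.3, 48, 42.1, 68.1 and 19.6 CPM with control treatment and 29.4, 19, 29.8, 17.5 and 74.4 CPM with GC. Here too GC-treated parental tumors 2 to 5 lie below all parental controls while tumor 1 does not, and the GR KO groups overlap. The GC effect did not pass in parental tumors (log2 fold change -1.35, SE 0.42, edgeR adjusted p = 0.146; exact p = 0.0159), but it passes without GC-treated parental tumor 1 (log2 fold change -1.89, edgeR adjusted p = 0.0249) and by DESeq2 (log2 fold change -1.35, DESeq2 adjusted p = 0.0378). No change passed in GR KO tumors (log2 fold change -0.28, SE 0.41, edgeR adjusted p = 0.718), nor did the difference (log2 difference -1.07, SE 0.59, edgeR adjusted p = 0.304). With GC the genotypes differ only without GC-treated parental tumor 1 (log2 fold change 1.72, edgeR adjusted p = 0.0463; log2 fold change 1.18, SE 0.42, edgeR adjusted p = 0.257 with all tumors). In cultures the counts of Psmb9 are 2, 20 and 6 in parental cells with DMSO, 6 and 9 in parental cells with GC, and 0 in all 6 GR KO libraries. Parental cells thus hold at least 11.2-fold more with DMSO (28 counts against 0) and at least 7.61-fold more with GC (15 against 0). Parental DMSO culture 2 holds 20 of the 28 counts, and without it the bound is 4.81-fold; with 1 library left out the bounds run from 4.81 to 15.2 with DMSO and from 4.64 to 7.70 with GC.

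Psmb10, the inducible subunit that replaces Psmb7, read 179, 164, 136, 181 and 165 CPM in parental control tumors and 177, 127, 138, 257 and 122 CPM in parental tumors with GC. GR KO tumors read 346, 349, 348, 331 and 214 CPM with control treatment and 200.03, 245, 186, 134 and 164 CPM with GC. The GR KO control tumors lie above all parental control tumors, and they overlap their GC-treated group only because GR KO control tumor 5 is low. Psmb10 was higher in control tumors of GR KO cells than of parental cells (log2 fold change 0.93, SE 0.21, edgeR adjusted p = 0.0288), with an exact p of 0.00794, the smallest possible. Without parental control tumor 2, 3 or 4 the edgeR adjusted p is 0.0625, 0.0786 and 0.0592, and without GR KO control tumor 1 or 2 it is 0.0729 and 0.0721. It fell with GC in GR KO tumors (log2 fold change -0.74, SE 0.21, edgeR adjusted p = 0.0363) to the range of parental tumors with GC, a comparison that shares the GR KO control tumors with the one before. That edgeR adjusted p is 0.0852, 0.0862 and 0.0646 without GR KO control tumor 1, 2 or 3, and 0.0658, 0.0920, 0.0676 and 0.0945 without GC-treated GR KO tumor 1, 3, 4 or 5. No change passed in parental tumors (log2 fold change -0.01, SE 0.21, edgeR adjusted p = 0.992), nor did the difference between the genotypes (log2 difference 0.74, SE 0.30, edgeR adjusted p = 0.176).

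In cultures Psmb10 read 45, 47.1 and 37.9 CPM in parental and 29.2, 24 and 31.7 CPM in GR KO cells with DMSO, and with GC 31.1 and 31.7 CPM in parental and 30.0, 26.1 and 34.8 CPM in GR KO cells. With DMSO the parental cultures lie above all GR KO cultures, by less than for the other inducible subunits. Psmb10 fell in GR KO against parental DMSO cultures (log2 fold change -0.62, SE 0.16, edgeR adjusted p = 0.0357). The edgeR adjusted p is 0.0994 and 0.0972 without parental DMSO culture 1 or 2, and 0.0976 and 0.153 without GR KO DMSO culture 1 or 2. With the replicate block it is 0.0566, and with only the 2 groups in the fit 0.0536. Both GC-treated parental cultures lie below the 3 with DMSO, a change that did not pass (log2 fold change -0.47, SE 0.18, edgeR adjusted p = 0.464).

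Of the counts for the 6 catalytic subunits Psmb5 to Psmb10, the inducible ones hold a mean of 60.7% (SD 4.51) in parental control tumors and 50.8% (SD 10.7) in parental tumors with GC. In GR KO tumors the mean is 58.9% (SD 10.5) with control treatment and 59.4% (SD 9.42) with GC. In cultures it is 8.88% (SD 0.544) in parental and 5.19% (SD 1.18) in GR KO cells with DMSO, and 6.57% (SD 1.05) and 5.69% (SD 1.39) with GC. The lowest tumor, GC-treated parental tumor 2 at 34.9%, lies above every culture, and the tumor groups overlap; no test was made of this share. The list of constitutive catalytic subunits and activator genes gave, with GC, 0 changes in 7 (median -0.14) in parental tumors and 0 changes in 7 (median -0.10) in GR KO tumors. Between the genotypes the list gave 0 changes in 7 (median 0.20) in control tumors and 0 changes in 7 (median 0.10) in DMSO cultures. The other 20S subunits gave, with GC, 0 changes in 11 (median -0.29) in parental tumors and 1 rise in 11 (Psma3, 0 to 3 with 1 library left out, median 0.27) in GR KO tumors, and between the genotypes 0 changes in 11 (median -0.22) in control tumors and 0 changes in 11 (median 0.23) in DMSO cultures. Against cultures, the constitutive Psmb5 is lower in control tumors (log2 -1.85 in parental and -1.95 in GR KO samples), as is Psmb7 (-2.23 and -4.05). Psmb6 is lower in parental samples (log2 -0.99) and did not pass in GR KO samples (0.16), and the difference (log2 difference 1.15, SE 0.35, edgeR adjusted p = 0.0493) has an edgeR adjusted p of up to 0.191 with 1 library left out, past 0.05 for 13 of the 16. That edgeR adjusted p is 0.0598 without a filter and 0.0687 with the replicate block. The activator genes Psme1 (1.65 and 2.56) and Psme2 (1.99 and 1.93) are higher, but for Psme2 in parental samples the edgeR adjusted p is 0.0702 without parental DMSO culture 2, and with the replicate block it is 0.0734 in parental and 0.111 in GR KO samples.

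## Nlrc5 and the interferon pathway

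Nlrc5, the activator of class I genes, read 28.8, 21.9, 20.2, 19.8 and 15.1 CPM in parental control tumors and 28.3, 24.4, 20.2, 30.1 and 19.1 CPM in parental tumors with GC. The values in GR KO tumors are 7.93, 26.8, 21.7, 45 and 17 CPM with control treatment and 28.1, 22.5, 37.3, 19.1 and 15.5 CPM with GC. All 4 tumor groups overlap. No change with GC passed in parental tumors (log2 fold change 0.21, SE 0.31, edgeR adjusted p = 0.817) or in GR KO tumors (log2 fold change 0.09, SE 0.31, edgeR adjusted p = 0.895), and no difference between control tumors of the genotypes passed (log2 fold change 0.14, SE 0.31, edgeR adjusted p = 0.839). In parental cultures Nlrc5 read 1.79, 2.38 and 1.56 CPM with DMSO and 1.13 and 0.695 CPM with GC. In GR KO cultures it has 0, 0 and 0 counts with DMSO and 4, 2 and 0 with GC, so no GR KO culture reaches a parental one. Nlrc5 fell in GR KO against parental DMSO cultures (edgeR adjusted p = 0.00320), with any 1 library left out as well, and parental cells hold at least 36.4-fold more (91 counts against 0). With GC the ratio is 7.86 (95% interval 3.23 to 23; 31 counts against 6). With 1 library left out the bound runs from 23.4 to 40.0 with DMSO and the ratio from 5.54 to 16.2 with GC.

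Irf1, an interferon-induced activator of class I genes, read 119, 198, 158, 219 and 245 CPM in parental control tumors and 141, 29.5, 107, 27.1 and 83 CPM in parental tumors with GC, where GC-treated tumors 2 to 5 lie below all parental controls. It read 200.03, 157, 252, 423 and 186 CPM in GR KO control tumors and 208, 140.1, 101, 103 and 177 CPM in GR KO tumors with GC, where the groups overlap. The GC effect on Irf1 did not pass in parental tumors (log2 fold change -1.29, SE 0.36, edgeR adjusted p = 0.104) or GR KO tumors (log2 fold change -0.69, SE 0.36, edgeR adjusted p = 0.239), nor did the difference (log2 difference -0.60, SE 0.51, edgeR adjusted p = 0.521). In cultures Irf1 read 43.5, 25.1 and 47.9 CPM in parental and 27.7, 26.9 and 22.8 CPM in GR KO cells with DMSO, and with GC 28.2 and 27.4 CPM in parental and 19.5, 24.4 and 14.1 CPM in GR KO cells. The genotypes overlap with DMSO, and no difference passed there (log2 fold change -0.60, SE 0.25, edgeR adjusted p = 0.161). Ifng, the ligand, read 1.64, 3.97, 2.72, 2.77 and 1.48 CPM in parental control tumors, 1.50, 0.202, 0.444, 1.30 and 1.25 CPM in parental tumors with GC, 1.01, 1.46, 1.29, 4.98 and 0.366 CPM in GR KO control tumors and 1.50, 0.479, 0.849, 0 and 0.905 CPM in GR KO tumors with GC. It is at 0 in all 11 cultures.

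As lists, the 16 transcription factors gave 0 changes in 16 (median -0.27) with GC in parental tumors and 2 falls in 16 (Irf8 and Rela, median -0.46) in GR KO tumors. Between the genotypes they gave 1 rise in 16 (Rela, 0 to 3 with 1 library left out, median 0.23) in control tumors. The 9 genes of the interferon gamma ligand, receptor and its signaling gave 0 changes in 9 (median -0.56) with GC in parental tumors, 1 rise in 9 (Ptpn11, 0 to 2 with 1 library left out, median 0.00) in GR KO tumors, and 0 changes in 8 (median 0.09) between DMSO cultures. Of the 5 genes for type I interferon and its receptor, Ifnb1 and Ifna4 are at 0 everywhere, and the others gave 0 changes in 3 (median -0.19) with GC in parental tumors, 0 changes in 3 (median -0.55) in GR KO tumors, and 0 changes in 3 (median -0.16) between DMSO cultures. The medians over all genes for the 4 comparisons used here are 0.00, 0.05, -0.04 and 0.01.

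Genes that interferon induces outside antigen presentation (15, such as Gbp2, Ifit1 and Bst2) were read as a list. In GR KO against parental DMSO cultures 7 of 11 tested fell (Iigp1, Igtp, Ifit1, Ifit3, Rsad2, Bst2 and Usp18), with a median of -1.78, where 8.22% of all genes passed. That count is 3, 2 and 3 without parental DMSO culture 1, 2 and 3, and 2, 3 and 2 without GR KO DMSO culture 1, 2 and 3. In tumors the list gave 1 fall in 15 (Bst2, 1 to 2 with 1 library left out, median -0.88) with GC in parental tumors, and 1 fall in 15 (Igtp, 0 to 2 with 1 library left out, median -0.46) with GC in GR KO tumors. Between the genotypes it gave 2 rises in 15 (Igtp and Usp18, 0 to 4 with 1 library left out, median 0.68) in control tumors and 3 rises in 15 (Isg15, Ifit3 and Bst2, 0 to 5 with 1 library left out, median 1.06) in GC-treated tumors. The genotype effect differs between tumors and cultures for 7 of the 15 (5 to 8 with 1 library left out), always upward in tumors, where 5.11% of all genes passed. Only 11 of the 15 had enough counts to be tested in cultures alone. The others entered this fit through the tumors, so a difference for them can follow in part from the filter.

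**Figure D2:**
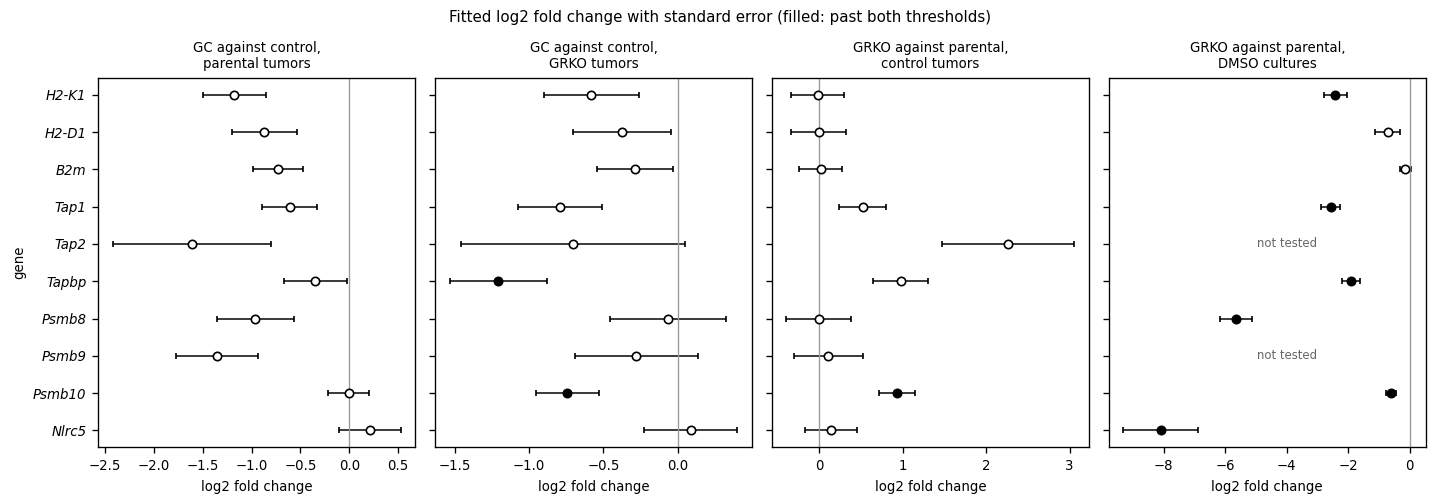
Log2 fold change with its standard error for each member in 4 comparisons: GC against control in parental tumors and in GR KO tumors (n = 5 against 5 each), GR KO against parental control tumors (n = 5 against 5) and GR KO against parental DMSO cultures (n = 3 against 3). Filled marks have an edgeR adjusted p under 0.05 and a fold of at least 1.5. Tap2 and Psmb9 were not tested in cultures, and the value of Nlrc5 there is no bound, since all 3 knockout libraries are at 0.

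## Tumors against cultures

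In parental samples the heavy chain H2-K1 is higher in control tumors than in DMSO cultures by log2 7.05, H2-D1 by 4.52 and B2m by 3.24. For Tap1 the value is 3.57, for Tapbp 1.47, for Psmb8 4.38, for Psmb10 1.93 and for Nlrc5 3.46. For all of these, every tumor lies above every culture. The share of all genes that separate in this way was not computed, and 46.7% of all genes passed in this comparison. Psmb9 also passed, with 66.2 times as much in tumors (95% interval 45.7 to 99.7), and with 154 times as much, outside that interval, without parental DMSO culture 2, which holds 20 of the 28 counts in those cultures. In both genotypes Psmb9 and Tap2 entered this fit only through the tumors, so that they are higher there follows in part from the filter. Tap2 did not pass (log2 fold change 2.44, SE 1.10, edgeR adjusted p = 0.0672), but it passes without parental control tumor 2 (log2 fold change 2.72, edgeR adjusted p = 0.0368) or parental DMSO culture 3 (log2 fold change 4.74, edgeR adjusted p = 0.0163) and by DESeq2 (log2 fold change 2.51, DESeq2 adjusted p = 0.0304).

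In GR KO samples the steps are larger for most members: log2 9.47 for H2-K1, 5.25 for H2-D1, 3.41 for B2m, 6.67 for Tap1, 5.50 for Tap2, 4.34 for Tapbp and 3.49 for Psmb10. All passed, where 54.8% of all genes passed, and no tumor overlaps a culture. Here too the share of all genes without overlap was not computed. By summed counts, tumors hold 1272 times as much Psmb8 (95% interval 617 to 3164), at least 867-fold more Psmb9 (3938 counts against 0) and at least 500.4-fold more Nlrc5 (2273 against 0). With 1 library left out these values run from 782 to 2019, from 558 to 982 and from 322 to 567. The step is larger than in parental samples for H2-K1 (log2 difference 2.42, SE 0.55, edgeR adjusted p = 0.00602). It is also larger for Tap1 (log2 difference 3.09, SE 0.48, edgeR adjusted p = 4.64e-05) and Tapbp (log2 difference 2.87, SE 0.50, edgeR adjusted p = 2.60e-04). Among the inducible subunits it is larger for Psmb8 (log2 difference 5.69, SE 0.84, edgeR adjusted p = 2.75e-05) and Psmb10 (log2 difference 1.56, SE 0.31, edgeR adjusted p = 0.00132). For the activator Nlrc5 it passed as well (log2 difference 8.36, SE 1.11, edgeR adjusted p = 6.14e-06). Psmb9 passed (log2 difference 6.63, SE 1.74, edgeR adjusted p = 0.0226), with an edgeR adjusted p of 0.161 without parental DMSO culture 2 and of 0.0664, 0.0816 and 0.0618 without GR KO DMSO culture 1, 2 or 3. It did not pass for H2-D1 (log2 difference 0.73, SE 0.58, edgeR adjusted p = 0.487), B2m (log2 difference 0.17, SE 0.38, edgeR adjusted p = 0.897) or Tap2 (log2 difference 3.06, SE 1.54, edgeR adjusted p = 0.247). The fitted values of Psmb9 and Nlrc5 in this difference rest on a group at 0 and are no bounds.

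## Marker genes of other cells

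The part of host cells in the levels of the members in tumors was not tested; the lists below give what was measured. 5 leukocyte markers sum to 1254, 1051, 992, 1277 and 946 CPM in parental control tumors and 998, 870.1, 541, 1195 and 689.7 CPM in parental tumors with GC. Tumors of GR KO cells sum to 2762, 2024, 1863, 1780.1 and 1691 CPM with control treatment and 870.4, 1101, 834, 850.0 and 887 CPM with GC. All GR KO control tumors lie above every other tumor, so this sum separates the 2 GR KO groups between which Tapbp and Psmb10 fell, and its part in those results was not tested. Laptm5 is the most abundant, at a mean of 589 CPM in tumors, and in cultures the sum is at most 0.877 CPM, with Cd52 at 0 in all. GC gave 1 fall in 5 (Coro1a, 0 to 1 with 1 library left out, median -0.47) in parental tumors and 2 falls in 5 (Cd52 and Laptm5, 1 to 2 with 1 library left out, median -0.59) in GR KO tumors, and control tumors of the genotypes differ with 1 rise in 5 (Laptm5, 0 to 2 with 1 library left out, median 0.12).

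11 markers of T and NK lymphocytes sum to 144, 118, 79.8, 111 and 64.1 CPM in parental control tumors and 106, 88.9, 51.8, 110.3 and 80.2 CPM in parental tumors with GC. In GR KO tumors they sum to 117, 172, 131, 212 and 107 CPM with control treatment and 73.8, 114, 97.7, 64.2 and 60.4 CPM with GC. All 4 groups overlap, the GR KO groups only through GC-treated GR KO tumor 2. Cd3d is the most abundant at a mean of 30.1 CPM, Trac is at 0 in all tumors, and 9 of the 11 are at 0 in all cultures. GC gave 0 changes in 10 (median -0.40) in parental tumors and 1 fall in 10 (Cd3d, 0 to 2 with 1 library left out, median -0.84) in GR KO tumors, and control tumors of the genotypes differ with 1 rise in 10 (Ncr1, 0 to 1 with 1 library left out, median 0.47).

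8 monocyte and macrophage markers, led by C1qa at a mean of 3207 CPM in tumors and with Adgre1 (Emr1 in the table) at 0 in all cultures, sum to 5549, 6332, 4287, 5017 and 3943 CPM in parental control tumors, 6417, 8133, 3859, 8917 and 5696 CPM in parental tumors with GC, 9023, 7873, 5849, 7433 and 6607 CPM in GR KO control tumors and 5406, 8104, 5082, 5140.1 and 4479 CPM in GR KO tumors with GC. All 4 groups overlap, and GC gave 0 changes in 8 (median 0.48) in parental tumors and 1 rise in 8 (Mrc1, 0 to 2 with 1 library left out, median 0.14) in GR KO tumors. 6 dendritic cell markers, led by Itgax at 68.1 CPM and with Flt3 and Xcr1 at 0 in all cultures, sum to 91.8, 132, 86.6, 116 and 76 CPM in parental control tumors, 81.7, 108, 53.4, 84.2 and 53 CPM in parental tumors with GC, 206, 205, 149.9, 202 and 115 CPM in GR KO control tumors and 55.7, 74.1, 59.5, 51.8 and 56.9 CPM in GR KO tumors with GC. Every GR KO control tumor lies above every GR KO tumor with GC here, and GC gave 0 changes in 6 (median -1.16) in parental tumors and 2 falls in 6 (Itgax and Zbtb46, 1 to 2 with 1 library left out, median -1.17) in GR KO tumors. 5 neutrophil markers, led by S100a8 at 164 CPM and with Ly6g at 0 in all libraries, sum to 19.5, 65.1, 233, 27.7 and 1231 CPM in parental control tumors, 11.8, 8.01, 9.86, 20.4 and 38 CPM in parental tumors with GC, 423, 761, 259.7, 180.1 and 1009 CPM in GR KO control tumors and 91.9, 45.1, 223, 191 and 123 CPM in GR KO tumors with GC. Here GC gave 2 falls in 4 (S100a8 and S100a9, 0 to 2 with 1 library left out, median -3.14) in parental tumors and 0 changes in 4 (median -1.19) in GR KO tumors. Of 5 markers of B and plasma cells, none reaches a mean of 1 CPM in tumors, and GC gave 0 changes in 2 (median 1.15) in parental tumors and 1 rise in 2 (Igj, median 3.21) in GR KO tumors, the last with Igj set to its bound. Most of these markers are at or near 0 in cultures, where Zbtb46 (9.66 CPM) and Cd68 (1.98 CPM) have the highest means.

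Ciita, the class II transactivator of presenting cells, read 25.3, 15.5, 2.30, 10.1 and 6.22 CPM in GR KO control tumors and 1.89, 3.19, 1.43, 2.89 and 2.07 CPM in GR KO tumors with GC. Control tumor 3 lies among the GC-treated ones, and all other controls lie above them. Ciita fell there with GC (log2 fold change -2.35, SE 0.50, edgeR adjusted p = 0.00804), and it is at 0 in all 11 cultures. With the 6 class II genes of its list, GC gave 0 changes in 7 (median -0.26) in parental tumors and 3 falls in 7 (Ciita, H2-Ab1 and H2-DMb1, median -1.16) in GR KO tumors.

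The 6 fibroblast markers, led by Col3a1 at a mean of 2721 CPM in tumors, sum to 6574, 7363, 6679, 7386 and 6746 CPM in parental control tumors, 10784, 7939, 10661, 7485 and 10614 CPM in parental tumors with GC, 3504, 3795, 4411, 6846 and 4985 CPM in GR KO control tumors and 9732, 7933, 11162, 7079 and 10479 CPM in GR KO tumors with GC. They are higher in all GC-treated tumors than in all control tumors of the same genotype, and GC gave 0 changes in 6 (median 0.34) in parental and 4 rises in 6 (Col1a1, Col1a2, Col3a1 and Pdgfra, 2 to 4 with 1 library left out, median 0.84) in GR KO tumors. The 5 endothelial markers (Kdr the most abundant, 28.3 CPM) sum to 63.9, 53.5, 45.5, 69.3 and 46.1 CPM in parental control tumors, 36.2, 18.7, 26.4, 35.1 and 34.4 CPM in parental tumors with GC, 93.6, 83.6, 103, 107 and 87.4 CPM in GR KO control tumors and 50.1, 52, 47.7, 42.1 and 47.2 CPM in GR KO tumors with GC. All GR KO control tumors lie above every other tumor here too, and all parental tumors with GC below every other; the part of this in the results for Tapbp and Psmb10 was not tested. GC gave 0 changes in 5 (median -0.81) in parental and 1 fall in 5 (Kdr, median -0.60) in GR KO tumors, and control tumors of the genotypes differ with 1 rise in 5 (Kdr, 0 to 1 with 1 library left out, median 0.74). The 6 keratinocyte markers (Krt14, 1198 CPM) gave 2 rises in 6 (Krt15 and Lor, 1 to 2 with 1 library left out, median 0.74) in parental and 2 rises and 1 fall in 6 (Krt14, Krt1 and Krt10, 1 to 3 rises with 1 library left out, 0 to 1 falls with 1 library left out, median 0.29) in GR KO tumors, and their sum runs from 1213 to 3019 CPM in parental control tumors, 1668 to 2095 in parental tumors with GC, 1984 to 3757 in GR KO control tumors and 1167 to 1947 in GR KO tumors with GC. The 5 muscle markers (Acta1, 257 CPM) gave 0 changes in 5 (median 0.49) in parental and 1 fall in 5 (Myh4, 0 to 1 with 1 library left out, median -0.62) in GR KO tumors. Markers that define melanocytes are few in this melanoma: of 7, Tyr is at 0 in all 31 libraries and Sox10, Dct and Mlana in all cultures. Mitf is the most abundant, and GC gave 0 changes in 5 (median -1.75) in parental and 0 changes in 5 (median 0.30) in GR KO tumors. The 7 neural crest genes, led in cultures by Axl at 1106 CPM, gave 0 changes in 7 (median 0.12) in parental and 1 fall in 7 (Ednrb, 1 to 2 with 1 library left out, median -0.83) in GR KO tumors. The 7 genes of the glucocorticoid response gave 5 rises in 7 (Tsc22d3, Per1, Mt2, Sgk1 and Klf9, median 1.73) in parental tumors, 5 rises in 7 (Tsc22d3, Per1, Fkbp5, Mt2 and Klf9, median 1.29) in GR KO tumors, in parental cultures 6 rises in 6 (Tsc22d3, Per1, Fkbp5, Mt2, Sgk1 and Klf9, median 2.55), and in GR KO cultures 0 changes in 6 (median -0.14).

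Over the 20 tumors, after each group was centred, the mean of the members' z-scored log2 levels was set against each of 8504 other genes. The z-score scales each member by its own SD. The closest are Ms4a4c (r = 0.86), Isg15 (0.86), Ifi47 (0.85), Ifit1 (0.84), Gbp2 (0.84), Ifi44 (0.82), Ccdc88b (0.81), Ptpn6 (0.81), Ly6c1 (0.81) and Mx1 (0.80), n = 20. Of these, 3 (Isg15, Ifit1 and Gbp2) are in the list of 15 interferon-induced genes and 7 are in none of the lists. In all, 567 genes have an r over 0.5, and without centring only 2 of the 10 remain among the closest 10. Members differ in how they follow the mean of the other 9: Tap1 and Psmb8 have an r of 0.75, H2-K1 0.67, Psmb9 0.62, H2-D1 0.57, B2m 0.48, Psmb10 0.45, Nlrc5 0.38, Tapbp -0.09 and Tap2 -0.39. The heavy chains follow each other closely (r = 0.98). Tapbp and Tap2 correlate negatively with both of them. For Tapbp the r is -0.47 with H2-K1 and -0.56 with H2-D1, and for Tap2 it is -0.42 and -0.36.

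**Figure D3:**
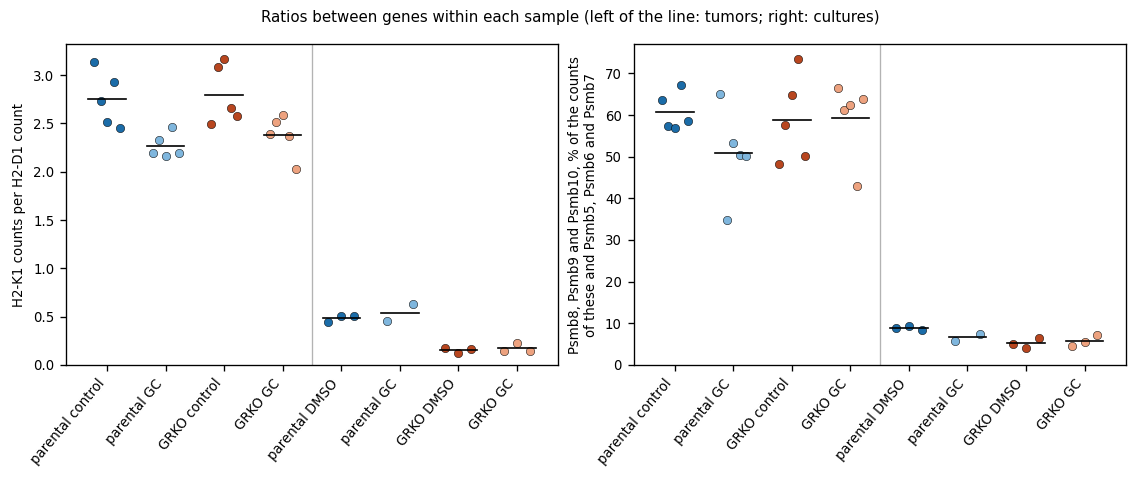
Left, counts of H2-K1 per count of H2-D1. Right, share of the inducible subunits Psmb8, Psmb9 and Psmb10 in the counts of Psmb5 to Psmb10, in percent. Each dot is 1 of 31 samples (n = 5 tumors in each tumor group; n = 3, 2, 3 and 3 cultures) and the line is the group mean.

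## Positions and promoters

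Of the members, 7 lie on chromosome 17, 2 on chromosome 8 and B2m alone on chromosome 2 (GRCm38, strand after each position). In order along chromosome 17 they are Tapbp (ENSMUSG00000024308, chr17:33915899-33929292, plus), H2-K1 (ENSMUSG00000061232, chr17:33996017-34000347, minus), Psmb9 (ENSMUSG00000096727, chr17:34181987-34187764, minus), Tap1 (ENSMUSG00000037321, chr17:34187553-34197225, plus), Psmb8 (ENSMUSG00000024338, chr17:34197721-34201454, plus), Tap2 (ENSMUSG00000024339, chr17:34203527-34216321, plus) and H2-D1 (ENSMUSG00000073411, chr17:35262730-35267499, plus). On chromosome 8 lie Nlrc5 (ENSMUSG00000074151, chr8:94434356-94527272, plus) and Psmb10 (ENSMUSG00000031897, chr8:105935735-105938444, minus), and on chromosome 2 B2m (ENSMUSG00000060802, chr2:122147686-122153083, plus). Psmb9 and Tap1 start 211 bases apart on opposite strands, and the block from Psmb9 to Tap2 spans 34335 bases. In DMSO cultures the knockout clone is lower in Tap1 and Psmb8 and has no count of Psmb9, while Tap2 has few counts in both genotypes. Tapbp overlaps Zbtb22 on the same strand by 3422 bases, and Zbtb22 has 15352 counts in tumors (3.20% of those of Tapbp) and 7744 in cultures (18.6%). Nlrc5 overlaps 9330175E14Rik on the other strand by 748 bases, and that gene has 1470 counts in tumors (15.6% of those of Nlrc5) and 5 in cultures (3.91%). The methods name featureCounts and, for whatever they do not specify, default settings, which ignore strand and leave a read that overlaps exons of 2 genes uncounted. Tapbp and Zbtb22 share a strand, and Nlrc5 and 9330175E14Rik lie on opposite strands. Tap1 and Psmb9, both members, overlap by 212 bases on opposite strands. B2m overlaps Patl2 on the other strand by 5398 bases, Psmb10 overlaps Gm16156 by 2710 and Psmb8 overlaps Gm20496 by 2139. With these settings the counts of all these pairs are uncertain where exons of both genes overlap.

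The promoters of H2-K1, H2-D1, B2m, Tap1 and Psmb8 are printed below as examples of the heavy chains, the light chain, the transporter and the inducible subunits, from 250 bases before to 50 after the transcript start (RefSeq, GRCm38.p6). Matches are in capitals on either strand: CCAAT (reverse ATTGG), the core TGACG (reverse CGTCA), the pair GAAANNGAA, the site TTCNNNGAA, the class I enhancer site GGGGATTCC and the receptor half-site AGAACA (reverse TGTTCT); no 2 matches overlap. H2-K1 is at chr17:34000298-34000597 (minus strand), H2-D1 at chr17:35262844-35263143 (plus), B2m at chr2:122147437-122147736 (plus), Tap1 at chr17:34187306-34187605 (plus) and Psmb8 at chr17:34197945-34198244 (plus).
H2-K1: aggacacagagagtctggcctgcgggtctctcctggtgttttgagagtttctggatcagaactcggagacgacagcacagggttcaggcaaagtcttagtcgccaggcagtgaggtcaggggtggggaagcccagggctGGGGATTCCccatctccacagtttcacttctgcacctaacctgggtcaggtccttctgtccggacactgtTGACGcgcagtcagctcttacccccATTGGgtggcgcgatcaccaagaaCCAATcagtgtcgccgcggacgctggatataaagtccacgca
H2-D1: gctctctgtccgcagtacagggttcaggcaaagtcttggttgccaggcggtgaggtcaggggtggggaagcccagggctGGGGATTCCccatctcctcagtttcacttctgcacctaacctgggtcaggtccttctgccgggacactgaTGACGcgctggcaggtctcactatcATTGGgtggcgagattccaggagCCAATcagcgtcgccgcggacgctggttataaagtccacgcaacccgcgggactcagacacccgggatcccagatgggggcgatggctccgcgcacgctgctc
B2m: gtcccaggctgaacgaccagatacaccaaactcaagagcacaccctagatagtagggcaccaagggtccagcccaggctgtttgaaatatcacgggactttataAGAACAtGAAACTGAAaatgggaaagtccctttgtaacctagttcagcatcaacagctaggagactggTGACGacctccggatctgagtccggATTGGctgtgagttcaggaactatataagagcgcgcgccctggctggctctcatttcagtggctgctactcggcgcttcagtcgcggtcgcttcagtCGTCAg
Tap1: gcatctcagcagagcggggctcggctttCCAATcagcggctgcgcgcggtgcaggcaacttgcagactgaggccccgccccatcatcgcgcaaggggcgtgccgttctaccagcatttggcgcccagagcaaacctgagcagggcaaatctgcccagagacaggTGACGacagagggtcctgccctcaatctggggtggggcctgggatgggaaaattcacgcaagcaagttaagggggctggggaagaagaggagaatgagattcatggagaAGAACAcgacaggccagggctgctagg
Psmb8: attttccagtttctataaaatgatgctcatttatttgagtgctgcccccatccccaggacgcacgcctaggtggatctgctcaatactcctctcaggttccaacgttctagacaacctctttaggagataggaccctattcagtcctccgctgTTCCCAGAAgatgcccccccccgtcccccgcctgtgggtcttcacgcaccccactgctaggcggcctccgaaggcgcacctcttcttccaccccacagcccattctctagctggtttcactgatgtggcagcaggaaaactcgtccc

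Of the 8 members with a promoter in the table (Tap2 and Nlrc5 have none there), 6 match CCAAT, as do 37.4% of all 32851 promoters, and 5 match TGACG, against 20.8%. Only H2-K1 and H2-D1 match GGGGATTCC, which 0.25% of all promoters hold. B2m alone matches GAAANNGAA (8.56% of all) and Psmb8 alone TTCNNNGAA (8.30%), and AGAACA occurs in B2m and Tap1 (19.0%). A match describes the sequence of the RefSeq window and shows no binding. H2-K1 and H2-D1 hold the same 4 matches in the same order. The promoters of Tapbp, Psmb9 and Psmb10 are in the table and not printed. The windows depend on the annotation: the RefSeq starts of H2-D1 and Psmb8 lie 364 and 474 bases inside the genes as placed above from GENCODE, whose nearest transcript starts are 364 and 175 bases away, so both windows lie wholly within the gene. For H2-K1, B2m and Tap1 the starts differ by at most 3 bases, and for Tapbp, Psmb9 and Psmb10 by 3579, 434 and 52, with a GENCODE transcript start 34, 8 and 52 bases away.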

How the data were processed

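The data are 3′ end RNA-seq libraries of 20 tumors and 11 cultures, grouped by genotype and treatment as the labels give them, n = 5 in each tumor group and 3, 2, 3 and 3 in the culture groups. The values are gene counts that the authors deposited after they trimmed the reads, aligned them to GRCm38 and counted them on Ensembl 75 gene models; the methods name no strand setting for this counting by featureCounts, and give default settings for what they do not specify. All 31 columns were used, with 15528066 to 26386770 counts in a tumor library and 14441166 to 22463188 in a culture library.

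Computed from these counts were CPM on TMM scaled libraries of all 31 samples, and 3 fits with edgeR 4.0.16 (R 4.3.3, limma 3.58.1): tumors, cultures, and both together for tumors against cultures. A gene was tested when it had at least 0.5 CPM in at least 3 samples. The quasi-likelihood test gave p values, Benjamini-Hochberg adjustment ran over all genes of a fit, and a gene passed with an adjusted p under 0.05 and a fold of at least 1.5. Exact permutation tests on log2 of CPM plus 1 were run for each member and each comparison of 2 groups (90 tests, of which 31 have a p under 0.05). They were not adjusted, and those between culture groups hold too few samples to reach 0.05. Ratios to a group at 0 are lower bounds against 3 counts, and intervals are 95% intervals from the summed counts. Positions are from GENCODE M21, and figures were drawn with Python 3.11.15 and matplotlib 3.10.9. The code was tested on simulated data.

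The members, and 22 lists of related genes and of marker genes, were chosen with earlier results of these data known. Named are all members, Irf1, Ifng, Ciita, Psme1, Psme2, Psmb5, Psmb6, Psmb7, Calr, Canx, Pdia3, Erap1 and Tapbpl, the heavy chains that passed in a comparison, the 10 genes most like the members in tumors among genes of at least 10 CPM, and Nr3c1 and Tsc22d3 as label checks; other genes are named where a list count is small, and were chosen after their values were seen. 1 gene that this rule names is not reported here. H2-T9 was left out, since the table does not hold it.

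Alternatives tried were DESeq2 1.42.0, its size factors within edgeR, blocking on the replicate number, no filter, a strict filter (every sample at 10 counts or more), fits of only the 2 groups compared, no minimum fold, a fold of at least 2, each library left out in turn, a pseudocount of 0.1 CPM, and likeness without centring.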

Additional observations from a re-analysis of the deposited data

Results flagged for a closer look

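Among 40 groups of 5 tumors, 9 hold a value far from the other 4, where chance alone puts about 1 in 20 groups on this list. H2-K1 reads 5602 CPM in GR KO control tumor 4, far above the rest of its group. H2-D1 reads 2104 CPM in the same tumor, again the highest. B2m reads 12183 CPM in GC-treated GR KO tumor 2, the highest of its group. Tap2 reads 8.21 CPM in GC-treated GR KO tumor 4, the highest of its group. Tapbp reads 1780.1 CPM in parental control tumor 1, the highest of its group. Psmb9 reads 20.2 CPM in parental control tumor 2, the lowest of its group. With GC it reads 35.2 CPM in parental tumor 1, the highest of that group. It reads 74.4 CPM in GC-treated GR KO tumor 5, the highest there. Psmb10 reads 214 CPM in GR KO control tumor 5, the lowest of its group.

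The genotype effect differs between control tumors and DMSO cultures for 7 members by a test of the difference itself. The log2 difference is 2.42 for H2-K1, 3.09 for Tap1 and 2.87 for Tapbp. For the inducible subunits it is 5.69 for Psmb8, 6.63 for Psmb9 and 1.56 for Psmb10. For Nlrc5 it is 8.36, and like the value of Psmb9 it is no bound, since knockout cultures are at 0. Psmb9 entered this fit only through the tumors. Its call is lost without parental DMSO culture 2, and also without GR KO DMSO culture 1, 2 or 3. The source of these differences was not tested.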

How the results depend on the processing

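Of the 12 counts of members that passed, all stayed within 1.5 times their value with no minimum fold, with the size factors of DESeq2, without a filter, and with the replicate number as a block. By DESeq2 the count is 2 in place of 0 for GC in parental tumors, 3 in place of 1 for GR KO against parental control tumors, 1 in place of 0 for GC-treated GR KO against parental tumors, and 1 in place of 0 for the difference of the GC effects in cultures; the cause was not tested. With a fold of at least 2 it is 1 in place of 2 for GC in GR KO tumors and 0 in place of 1 for GR KO against parental control tumors, which the higher threshold itself brings about. With only the 2 groups in the fit it is 1 in place of 2 for GC in GR KO tumors (Psmb10 has an edgeR adjusted p of 0.0639), with fewer samples for the spread. With at least 10 counts in every sample it is 6 in place of 10 for GR KO tumors against cultures and 4 in place of 7 for the difference of the genotype effects, since fewer members are tested.

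With 1 library left out, the count runs from 0 to 2 for GC in parental tumors, from 0 to 3 for GC in GR KO tumors, from 0 to 2 for GR KO against parental control tumors, and from 0 to 1 for GC-treated GR KO against parental tumors; the cause was not tested. For GR KO against parental DMSO cultures it runs from 5 to 6, for parental tumors against cultures from 9 to 10, and for the difference of the genotype effects from 6 to 7. Of 1151 log2 fold changes recomputed in this way, 1066 kept their direction and their side of the threshold, 71 lost the threshold, 7 passed it and 7 changed sign. Those that changed sign are Psmb10 with GC in parental tumors (-0.01 in all tumors; -0.24 to 0.0890 with 1 left out) and H2-D1 with GC in GR KO tumors (-0.37; -0.50 to 0.00966), neither past the threshold in any case.

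On average the replicate numbers show no clear pairing of the samples. The mean correlation between groups of libraries with the same number is 0.0235 in tumors (12 of 30 pairs over 0.1) and 0.0110 in cultures (6 of 15). Single pairs run from -0.387 to 0.237 in tumors and from -0.318 to 0.390 in cultures, so this check cannot exclude pairing of some libraries. With the number as a block all the same, members that passed number 0 and 2 for GC in parental and GR KO tumors, 0 for their difference, 1 and 0 between the genotypes of control and GC-treated tumors, 0, 0 and 0 for GC in cultures and its difference, 5 between DMSO cultures (Psmb10 is lost, edgeR adjusted p = 0.0566), and 9, 10 and 7 for tumors against cultures. Of 125 log2 fold changes the block left 104 on their side of the threshold and 21 weaker.

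The counts of genes in the lists move as well. Of 96 counts of higher genes in a list, those that moved by more than 1.5 times, or to or from 0, number 29 by DESeq2, 44 with the strict filter (at least 10 counts in every sample), 23 with the block, 8 without a filter, 7 at a fold of 2, 3 with the size factors of DESeq2 and 1 with no minimum fold, and 15 of 76 with only 2 groups. Of 73 counts of lower genes they number 22, 5, 13, 2, 8, 2 and 3 in the same order, and 11 of 55 with only 2 groups. With 1 library left out, 153 of 989 counts of higher and 133 of 816 of lower genes moved.

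Counts over all genes move too. For GC in parental tumors they are 124 by edgeR and 376 by DESeq2, and 60 to 178 with 1 library left out. For GC in GR KO tumors they are 1022 and 1756 by DESeq2, 583 at a fold of 2, 391 with only 2 groups, and 303 to 2411 with 1 left out. For the difference they are 31, 784 by DESeq2, 49 without a filter, 66 with the strict filter, 144 with the block, and 0 to 1284 with 1 left out. Between control tumors they are 358, 1001 by DESeq2, 238 at a fold of 2, 159 with only 2 groups, and 61 to 1762 with 1 left out. Between GC-treated tumors they are 101, 293 by DESeq2, 160 with the block, and 40 to 114 with 1 left out. In parental cultures GC gives 110, 251 by DESeq2, 63 with the block, 59 with only 2 groups, and 31 to 78 with 1 left out; the difference in cultures gives 37, 128 by DESeq2, 64 without a filter, and 17 to 43 with 1 left out. Between DMSO cultures they are 1030, 661 with the strict filter, and 594 to 916 with 1 left out. Tumors against cultures give 7595 in parental and 8917 in GR KO samples, 4431 and 5081 with the strict filter, and the difference of the genotype effects gives 832, 1385 by DESeq2, 525 with the strict filter, and 483 to 1956 with 1 left out. In that fit the median over all genes is 0.37 and 0.33, against 0.14 and 0.00 without a filter and 0.04 and 0.03 with the strict filter, shifts that are small beside those of the members. Of the exact tests, 31 of 90 have a p under 0.05 with a pseudocount of 1 CPM, and the same 31 with 0.1 CPM. Comparisons between culture groups hold too few samples to reach 0.05 in these tests. In tumors against cultures, groups do not overlap for 9 members in parental and 10 in GR KO samples, and these are among the 31. Without centring, 2 of the 10 genes most like the members remain.

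The knockout cultures are 1 clone by their library names, so a difference between the genotypes can be the clone's own. Where 1 of the 2 GC-treated parental cultures is left out, the other is taken to vary like the rest. GR KO control tumors vary in complexity and scaling, and the calls for Tapbp and Psmb10 in tumors rest on them. Depth limits Tap2, Psmb9 and Nlrc5 in cultures, where groups hold from 0 to 91 counts in all. RNA levels do not give class I protein at the cell surface, and 3′ counts do not tell isoforms apart.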
